A study of Mus musculus with 4 samples.

Results

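Genes switched on by low oxygen, other than those of glycolysis, were followed across 4 sources of B16F10 mouse melanoma RNA. The 9 genes were Vegfa, Adm, Car9, Egln3, Ankrd37, Ndrg1, Bnip3, Bnip3l and Kdm3a. They were chosen by symbol as classical targets of hypoxia-inducible factor (HIF), and all 9 were found among the 24527 gene symbols of the read count table. Each was kept by the filter on low values, a mean over the libraries of at least 1 CPM (reads on a gene, scaled to a common library total), which left 12728 genes.

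The study asked how far B16F10 cells grown in 3D with fibroblasts resemble the same cells in a tumor. RNA was sequenced from B16F10 cells in 2D monoculture, from 2D co-culture with NIH/3T3 mouse fibroblasts, from B16F10–NIH/3T3 spheroids made in hanging drops, and from tumors formed after B16F10 cells were injected under the skin of both flanks of female C57BL/6 mice that were a year old. All samples come from 1 cell line, labelled wild type, and no treatment is given for any of them. According to the methods, the cells carried green fluorescent protein in the cytoplasm, and living fluorescent cells were sorted from the cultures, so that the fibroblasts were meant to be left out. The tumor library is described as sorted cells in the methods and as frozen tumor tissue in its label.

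Each condition had 1 library, so the differences below were not tested against replicates. The methods mention several RNA isolations, and whether samples were pooled into a library is not stated in the sources used here. The libraries held between 118896900 and 150028663 reads on genes. At this depth 3 reads came to between 0.0185 and 0.0262 CPM, and all 95% intervals given here cover counting error only. Melanocyte markers were high in every library, with the 8 genes of that list summing to between 11420 and 20122 CPM. Markers of other cells were high in the tumor library: 12 myeloid genes summed to 2138 CPM there against 10.9 to 30 CPM in the cultures, with Cd14 at 0 reads in the 2D monoculture, which allows up to 0.0211 CPM. The 9 fibroblast genes summed to 2728 CPM in the tumor, 679 in the 2D co-culture, 36.5 in the spheroid and 17.6 in the 2D monoculture. The 5 skeletal muscle genes reached 4599 CPM in the tumor and 3.28 to 12.4 CPM in the cultures, with Myh4 also at 0 reads in the 2D monoculture. The 3 adipocyte genes reached 722 CPM in the tumor and 0.639 to 1.19 CPM in the cultures. Of the 10 endothelial genes, which summed to 398 CPM in the tumor, Eng made up nearly all of the 272 to 333 CPM in the cultures. The 4 keratinocyte genes stayed between 0.00734 and 1.11 CPM in sum. In such bulk libraries fewer cells of a type and less RNA per cell cannot be told apart.

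HIF is a transcription factor made of an oxygen-labile alpha subunit and a stable partner. When oxygen is present, prolyl hydroxylases mark the alpha subunit and the VHL ubiquitin ligase removes it. When oxygen falls, the subunit accumulates, pairs with ARNT and binds short DNA elements near its target genes. The best known targets speed up glycolysis, and the others, to which the genes here belong, attract vessels, buffer acid, restrain HIF itself, clear mitochondria and alter chromatin. Solid tumors, melanoma among them, often contain hypoxic areas, and the inner cells of a spheroid can lack oxygen too.

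The core of the HIF element is ACGTG or GCGTG. Both were searched on both strands in the 250 bases before the gene start, in the RefSeq promoter table of mouse build GRCm38 (called mm10 by the submitters). The table held 7 of the 9 genes, without Ndrg1 and Bnip3l. Of these, Bnip3 had 5 matches, Ankrd37 had 4, Adm had 2, Car9, Egln3 and Kdm3a had 1 each, and Vegfa had 0. Of all 27018 promoters listed there, 38.6% held a match and 16.8% held 2 or more. Over the 9860 promoters of genes averaging at least 1 CPM, 56.8% held a match, 28.1% held 2 or more and 5.06% held 4 or more, so that a match is common among expressed genes. The match nearest to each start is shown within 30 bases of the coding strand, to show the kind of element that HIF is known to bind. Capitals mark the core or, where it lies on the other strand, its reverse complement CACGT or CACGC.
Adm, chr7:110627591-110627620, plus strand: ggcaaatctgacCACGCccaccgtccgccc
Car9, chr4:43506996-43507025, plus strand: ctatttccgatgCACGTacagcccgtccac
Egln3, chr12:54204086-54204115, minus strand: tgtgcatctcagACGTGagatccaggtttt
Ankrd37, chr8:45999851-45999880, minus strand: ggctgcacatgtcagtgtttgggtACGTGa
Bnip3, chr7:138909524-138909553, minus strand: ggctccgccgccGCGTGcgtcccgccccgc
Kdm3a, chr6:71632927-71632956, minus strand: ccgggaggctgtGCGTGtcttgtgagagag

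The promoter table's starts of Car9, Ankrd37 and Kdm3a lie inside the gene as drawn by GENCODE M21, and so do the stretches shown. The Ankrd37 and Kdm3a stretches also lie inside the full RefSeq gene. Bnip3, with most matches, is shown over the 237 bases upstream of its GENCODE start. In capitals CACGTG is a match on both strands at once, so that 2 of its 5 matches overlap. Among the 4 Ankrd37 matches 2 overlap as well, with first bases at -155 and -152 from the start.
Bnip3 upstream stretch, chr7:138909520-138909756, minus strand: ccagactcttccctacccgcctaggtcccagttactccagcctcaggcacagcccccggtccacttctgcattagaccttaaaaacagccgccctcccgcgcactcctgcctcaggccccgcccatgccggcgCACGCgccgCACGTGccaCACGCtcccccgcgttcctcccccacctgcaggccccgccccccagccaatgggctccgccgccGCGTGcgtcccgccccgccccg

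The matches are descriptions of letters and say nothing of binding in these cells, and the lack of a match for Vegfa says only that these letters are not in this window. Egln3 and Kdm3a, with 1 match each, had the highest and the lowest ratio of spheroid to 2D monoculture among the 9 genes.

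Vegfa, the main growth signal for blood vessel cells, was highest in the spheroid. It lies on the minus strand at chr17:46016993-46032369 and had 107 CPM in the 2D monoculture, 167 in the 2D co-culture, 453 in the spheroid and 177 in the tumor. The spheroid stood apart, and with this scaling the tumor was close to the 2D co-culture. With total counts the log2 ratio to the 2D monoculture was 0.97 in the tumor and 0.61 in the 2D co-culture. The spheroid exceeded the 2D monoculture by a log2 ratio of 2.08 (95% interval 2.05 to 2.10), or 4.22-fold, the 145th highest of 12728 genes in a ranking that adds 1 CPM to both values. The tumor was 1.65-fold above the 2D monoculture, so that the spheroid exceeded the tumor 2.55-fold, a log2 ratio of 1.35 (1.33 to 1.37). When libraries were scaled by total counts, this ratio came to 0.99 on the log2 scale, just under 2-fold.

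Adm, at chr7:110627661-110629820 on the plus strand, encodes adrenomedullin, a secreted peptide that widens vessels. Its levels were 30.8 CPM in the 2D monoculture, 52.0 in the 2D co-culture, 104 in the spheroid and 90.8 in the tumor. Spheroid and tumor were thus close to each other and above both 2D cultures. The log2 ratio to the 2D monoculture was 1.76 (1.71 to 1.81) in the spheroid and 1.56 (1.51 to 1.61) in the tumor. The direct ratio of spheroid to tumor was 0.20 on the log2 scale, with a counting interval of 0.17 to 0.23, but it turned to -0.16 with scaling by total counts and to -0.12 with factors taken from genes expressed in the 2D monoculture. Which of the libraries had more Adm is therefore set by the scaling.

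Car9, at chr4:43506966-43513729 on the plus strand, encodes carbonic anhydrase 9, an enzyme on the cell surface that helps export acid. It had 10.1 CPM in the 2D monoculture, 18.3 in the 2D co-culture, 65.2 in the spheroid and 175 in the tumor, and so was higher in each library than in the one before. Its span from lowest to highest, 17.3-fold, was the widest of the 9 genes. In the spheroid it was 6.45-fold above the 2D monoculture, a log2 ratio of 2.69 (2.61 to 2.77) and the 56th highest of all genes. In the tumor the log2 ratio was 4.11 (4.03 to 4.19). The spheroid was 2.68-fold below the tumor. The tumor level was measured in a library that also held the myeloid, fibroblast, muscle and fat transcripts listed above, and their part in it was not tested.

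Egln3, at chr12:54178981-54203860 on the minus strand, encodes the prolyl hydroxylase PHD3, which HIF induces and which in turn marks HIF for removal. Reads were few in the 2D monoculture, with 239, against 764 in the 2D co-culture, 2234 in the spheroid and 1413 in the tumor. The levels were 1.68 CPM, 6.67 CPM, 16.4 CPM and 8.70 CPM in the same order. The spheroid was highest and the 2D monoculture stood far below the rest. Over the 2D monoculture the spheroid had a log2 ratio of 3.29 (3.10 to 3.49), or 9.78-fold, the largest of the 9 genes in this comparison and the 45th highest of all genes. The 2D co-culture alone was already 3.98-fold above the 2D monoculture, a log2 ratio of 1.99 (1.78 to 2.21). The tumor was 5.19-fold above it.

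Ankrd37, at chr8:45996902-46005707 on the minus strand, encodes a small ankyrin repeat protein and is used as an indicator of HIF activity. Its levels were low, at 1.87 CPM in the 2D monoculture, 3.29 in the 2D co-culture, 5.25 in the spheroid and 10.8 in the tumor. The order was the same as for Car9, with smaller steps. The log2 ratio to the 2D monoculture was 1.49 (1.28 to 1.69) in the spheroid and 2.53 (2.34 to 2.72) in the tumor. Ankrd37 shares 57 exonic bases with Ufsp2 and 186 with Lrp2bp, both on the opposite strand, and the library kit does not mark strand. Ufsp2 had between 29.2 and 58.5 CPM, with its highest level also in the tumor, so that reads of these neighbours and of Ankrd37 cannot be told apart where they overlap.

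Ndrg1, at chr15:66929318-66969640 on the minus strand, encodes a cytoplasmic protein induced by stress and differentiation that is tied to the control of metastasis. Its levels were 48.0 CPM in the 2D monoculture, 39.3 in the 2D co-culture, 250 in the spheroid and 71.9 in the tumor. The spheroid stood alone, and the 2D co-culture was the lowest. The log2 ratio of spheroid to 2D co-culture was 2.67 (2.62 to 2.71), or 6.35-fold, the largest of the 9 genes in that comparison and the 56th highest of all genes. Against the 2D monoculture the spheroid was 5.20-fold higher and against the tumor 3.47-fold higher.

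Bnip3 and Bnip3l encode related receptors of the outer mitochondrial membrane that hand mitochondria to autophagosomes, and they differed in order. Bnip3, at chr7:138890836-138909519 on the minus strand, had 110 CPM in the 2D monoculture, 130 in the 2D co-culture, 233 in the spheroid and 500 in the tumor. Bnip3l, at chr14:66985239-67008877 on the minus strand, had 80.7 CPM, 52.1 CPM, 63.8 CPM and 166 CPM in the same libraries. The tumor was highest for both, but in the spheroid Bnip3 was above and Bnip3l below the 2D monoculture. Relative to the 2D monoculture the spheroid had a log2 ratio of 1.08 (1.05 to 1.11) for Bnip3 and -0.34 (-0.38 to -0.30) for Bnip3l. A ratio of reads within a library needs no scaling between libraries, and by this measure 1.37 Bnip3 reads (1.33 to 1.40) were counted per Bnip3l read in the 2D monoculture, 2.49 (2.42 to 2.57) in the 2D co-culture, 3.66 (3.57 to 3.75) in the spheroid and 3.01 (2.97 to 3.05) in the tumor. The share of Bnip3 among the reads of this receptor pair was thus lowest in the 2D monoculture.

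Kdm3a, at chr6:71588972-71632990 on the minus strand, encodes an oxygen-dependent histone demethylase, and it went the other way. It had 85.1 CPM in the 2D monoculture, 39.0 in the 2D co-culture, 18.6 in the spheroid and 115 in the tumor. The spheroid was the lowest library and the tumor the highest, the reverse of the place the spheroid took for Vegfa, Egln3 and Ndrg1. With the 2D monoculture as reference, the spheroid had a log2 ratio of -2.19 (-2.26 to -2.13), so that the spheroid was 4.58-fold lower, at the 394th lowest place of all genes. Against the tumor the spheroid was 6.18-fold lower, a log2 ratio of -2.63 (-2.69 to -2.57). Vegfa reads per Kdm3a read, again free of scaling, went from 1.26 in the 2D monoculture to 4.29 in the 2D co-culture and 24.4 (23.4 to 25.4) in the spheroid, and stood at 1.55 in the tumor. Such read ratios are not free of the trend with GC content and length that is described below.

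**Figure D1:**
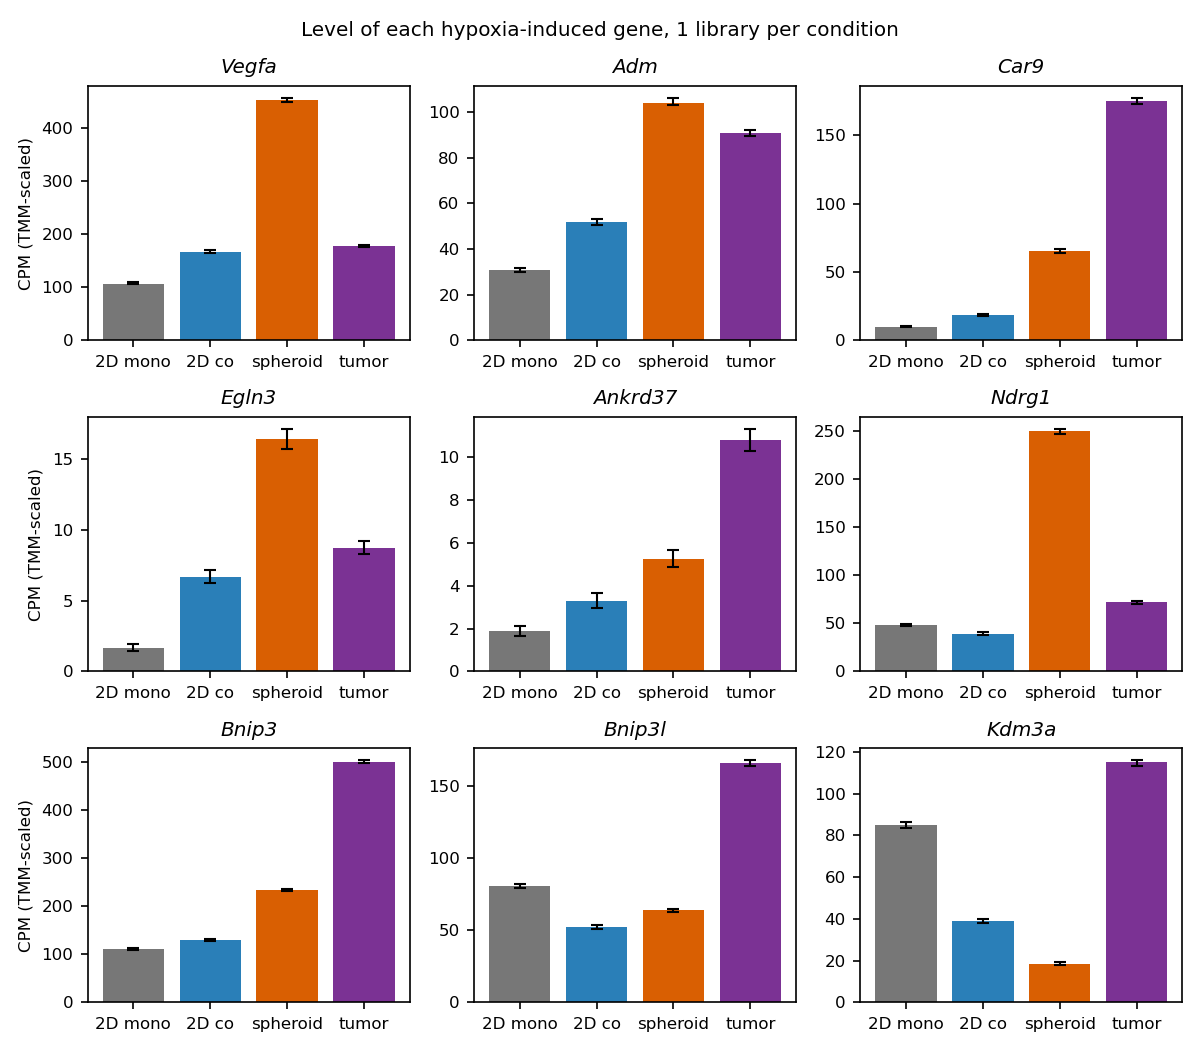
Level of each of the 9 genes (vertical axis, TMM-scaled CPM from 0) in the 2D monoculture, 2D co-culture, spheroid and tumor libraries, with 95% counting intervals as error bars and 1 library per bar. Vegfa, Egln3 and Ndrg1 peak in the spheroid, as does Adm with this scaling but not with total counts, Car9, Ankrd37, Bnip3, Bnip3l and Kdm3a in the tumor, and Kdm3a is lowest in the spheroid at 18.6 CPM.

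Within each gene the 3 neighbouring pairs in the order of levels had counting intervals that did not overlap. These intervals do not include the spread between cultures or animals. Exonic reads of Car9, Ndrg1 and Bnip3 could include those of antisense transcripts that GENCODE places over 145, 419 and 504 of their exonic bases respectively, for which the table has no row.

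The spheroid was compared with the 2D monoculture to see what growth in 3D with fibroblasts changed. Vegfa, Adm, Car9, Egln3, Ankrd37, Ndrg1 and Bnip3 were over 2-fold higher in the spheroid when 1 CPM was added to both values, which is 7 of the 9 genes. Among all 12728 genes 11.2% were over 2-fold higher. The count was 6 with total counts, where Bnip3 came to 0.96 on the log2 scale, and 6 with the correction for GC content and length described below, which ended the call of Ankrd37. Kdm3a was the 1 gene of the 9 over 2-fold lower, beside 17.9% of all genes. The 7 higher genes lay between 2.12-fold (Bnip3) and 9.78-fold (Egln3). Bnip3 and Ankrd37 were at the 1211th and 1091st highest place of all genes, Adm at the 296th, and Vegfa, Ndrg1, Car9 and Egln3 were above it.

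**Figure D2:**
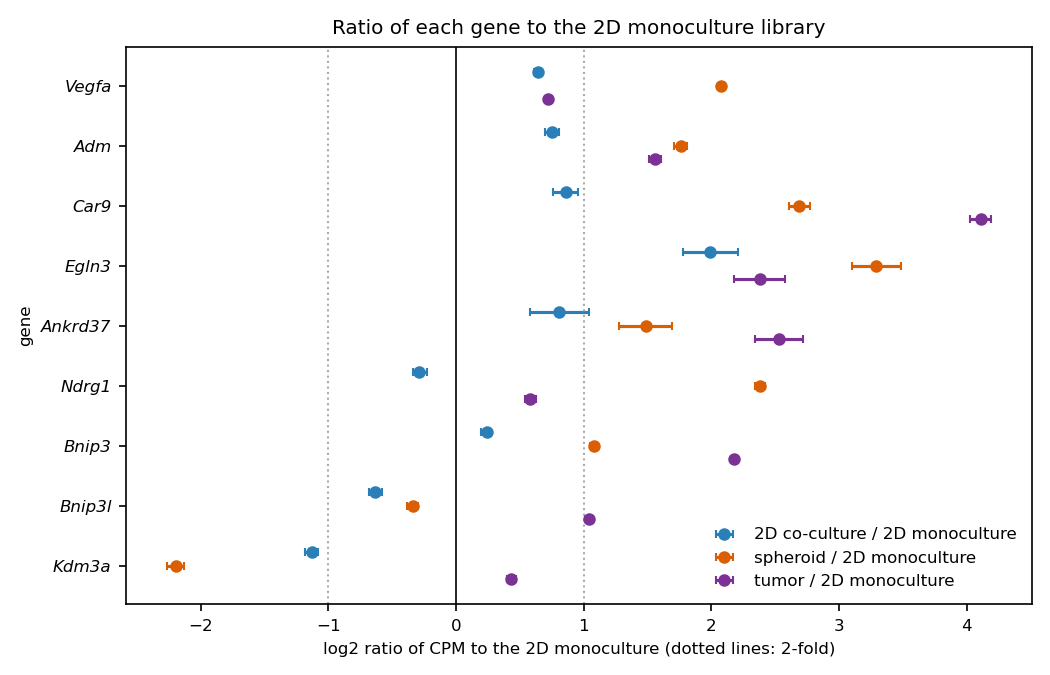
Log2 ratio of CPM to the 2D monoculture (horizontal axis) for the 9 genes in the 2D co-culture, spheroid and tumor libraries, with 95% counting intervals and dotted lines at 2-fold. The spheroid points run from -2.19 for Kdm3a to 3.29 for Egln3, and the tumor points are all above 0. The 3 ratios share the 2D monoculture library.

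The 2D co-culture was compared with the 2D monoculture to see what fibroblasts without 3D growth changed. Egln3 was the 1 gene of the 9 over 2-fold higher, beside 3.79% of all genes, and Kdm3a the 1 gene over 2-fold lower, beside 9.51% of all genes. Vegfa, Adm, Car9 and Ankrd37 were 1.56-fold, 1.69-fold, 1.81-fold and 1.76-fold higher, and Bnip3 1.18-fold higher. Bnip3l and Ndrg1 had log2 ratios of -0.63 (-0.68 to -0.58) and -0.29 (-0.34 to -0.23). Kdm3a was 2.18-fold lower, with a log2 ratio of -1.13, which came to -0.86 after the median ratio of genes of like GC content and length was removed, and so lost its call. Fibroblast markers were higher in this library than in the other cultures, at 679 CPM, and their part in these ratios was not tested.

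Spheroid and 2D co-culture were both grown with fibroblasts, and their comparison was meant to set 3D against 2D growth. Fibroblast markers differed between these libraries, at 36.5 and 679 CPM, and their part in the ratios was not tested. Vegfa, Car9, Egln3 and Ndrg1 were over 2-fold higher in the spheroid, 4 of the 9 genes, beside 9.54% of all genes. Kdm3a was over 2-fold lower, beside 8.46% of all genes. The log2 ratios were 1.44 (1.41 to 1.46) for Vegfa, 1.83 (1.76 to 1.90) for Car9 and 1.30 (1.18 to 1.42) for Egln3. Adm was at 2.01-fold, and under 2-fold once 1 CPM was added. Bnip3, Ankrd37 and Bnip3l had log2 ratios of 0.84, 0.67 and 0.29. For Kdm3a the log2 ratio was -1.07 (-1.14 to -1.0), and -0.70 with the correction for GC content and length, which ended the call.

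The tumor was compared with the 2D monoculture as the in vivo state of the line. Adm, Car9, Egln3, Ankrd37, Bnip3 and Bnip3l were over 2-fold higher in the tumor, 6 of the 9 genes, beside 14.8% of all genes. None of the 9 was over 2-fold lower, which is 0 beside 18.2% of all genes. Bnip3 was 4.53-fold higher, a log2 ratio of 2.18 (2.16 to 2.21). Bnip3l was 2.06-fold higher, a log2 ratio of 1.04 (1.01 to 1.07), and 0.73 with the correction for GC content and length, which put it under 2-fold. Vegfa, Ndrg1 and Kdm3a were 1.65-fold, 1.5-fold and 1.35-fold higher, and with the correction the log2 ratios of Vegfa and Ndrg1 came to 1.26 and 1.04. The summed markers of myeloid, fibroblast, muscle and fat cells were all higher in the tumor library than in 2D monoculture, and their part in these ratios was not tested.

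Spheroid and tumor were compared directly. Vegfa and Ndrg1 were over 2-fold higher in the spheroid, 2 of the 9 genes, beside 26.8% of all genes. Car9, Bnip3, Bnip3l and Kdm3a were over 2-fold lower, 4 of the 9 genes, beside 27.6% of all genes. Many genes of any kind were past 2-fold in each direction here, so that the counts by themselves say little of the 9 genes. Ankrd37 was 2.06-fold lower, and under 2-fold with 1 CPM added. Egln3 was 1.88-fold higher in the spheroid, a log2 ratio of 0.91 (0.82 to 1.01), and Adm 1.15-fold higher with the reservation given above. Summed markers of myeloid, fibroblast, muscle and fat cells were all higher in the tumor library than in the spheroid, and their part in these ratios was not tested.

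**Figure D3:**
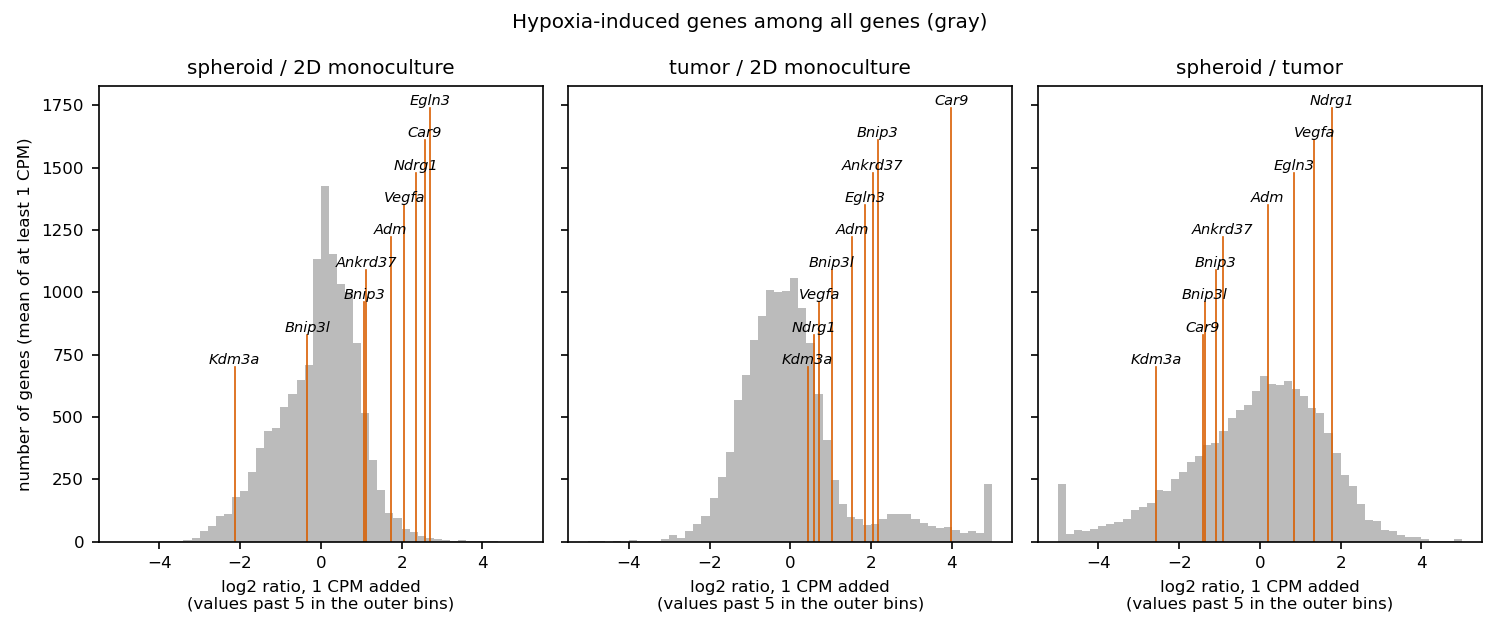
Number of genes (vertical axis) by log2 ratio with 1 CPM added (horizontal axis, values past 5 in the outer bins) for spheroid against 2D monoculture, tumor against 2D monoculture and spheroid against tumor, over the 12728 genes in gray. Lines mark the 9 genes, their heights set for legibility: in the spheroid against the 2D monoculture Vegfa, Ndrg1, Car9 and Egln3 lie in the thin upper tail and Kdm3a in the lower tail.

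The ratios followed the GC content of the genes. Across 12672 genes Spearman's correlation of GC content with the log2 ratio was 0.463 for spheroid against 2D monoculture, 0.524 for spheroid against tumor and -0.381 for tumor against 2D monoculture. The genes are not independent of each other, and the libraries are shared. Bnip3 and Bnip3l are poor in GC, at 41.6% and 41.8%, with 10.9% and 11.7% of all genes lower, and Kdm3a has 45.5%. The other 6 genes have between 50.4% and 53.9%. After genes were sorted into 10 GC and 10 length classes and the median ratio of each combination was removed, the log2 ratio of the spheroid over the 2D monoculture was 2.09 for Vegfa, 2.34 for Ndrg1, 3.16 for Egln3, 1.03 for Bnip3 and -1.57 for Kdm3a. Adm, Car9 and Ankrd37 came to 1.36, 2.25 and 1.09, so that the signs of all 9 ratios were as before. These ratios have nothing added. With 1 CPM added, as for the calls, the corrected Ankrd37 ratio was under 2-fold. Between spheroid and tumor the correction moved Bnip3 from -1.10 to -0.32 and Bnip3l from -1.38 to -0.68, which ended both calls, while Car9 went from -1.42 to -2.33 and Kdm3a from -2.63 to -1.95. Whether GC content itself shaped these values was not tested.

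**Figure D4:**
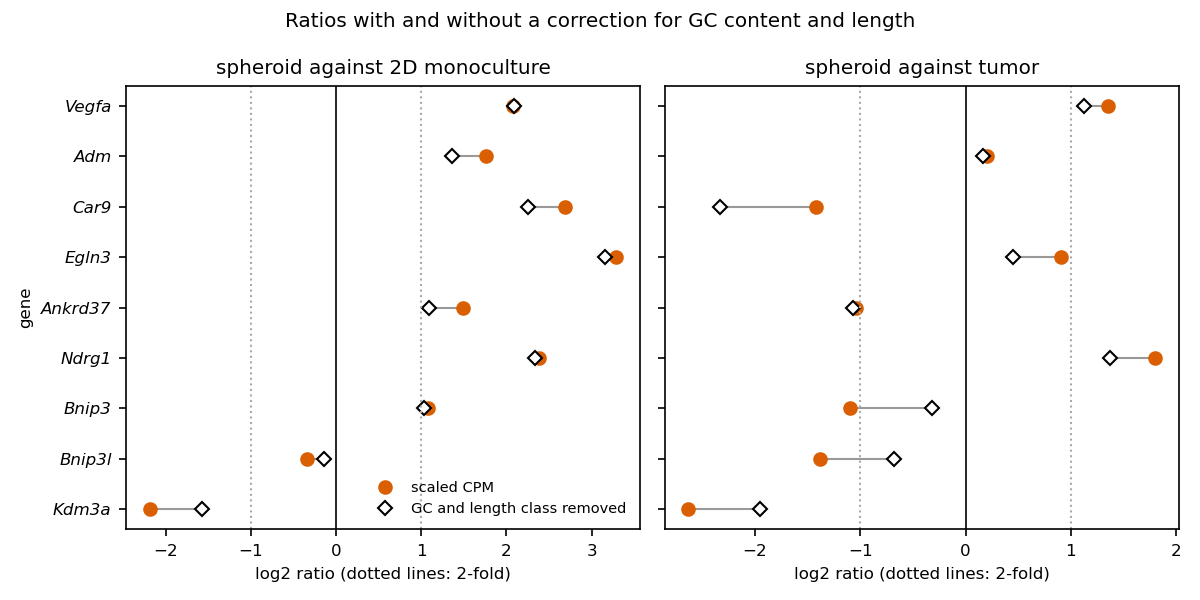
Log2 ratio (horizontal axis) of the 9 genes for spheroid against 2D monoculture and spheroid against tumor, as scaled CPM (filled) and after the median ratio of genes of the same GC and length class was removed (open), with dotted lines at 2-fold. Bnip3 and Bnip3l move inside the 2-fold lines against the tumor, and Kdm3a stays below them in both panels.

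Levels of different genes can be compared once divided by exon length. Lengths are those of the joined exons of the GENCODE basic transcripts, and would differ with other transcript sets. Per kilobase of exon, Bnip3 had the highest level of the 9 genes in the 2D monoculture, with 59.4 CPM per kilobase, and in the tumor, with 269 CPM per kilobase. In the spheroid Vegfa and Bnip3 were close, with 128 and 126 CPM per kilobase, and Ndrg1 had 86.4 CPM per kilobase. Car9 was 7th of the 9 in the 2D monoculture, with 5.0 CPM per kilobase, and had 86.3 CPM per kilobase in the tumor, behind Bnip3 alone. Kdm3a had 17.0 CPM per kilobase in the 2D monoculture and 3.71 CPM per kilobase in the spheroid, below the other 8 genes there. Egln3 was the lowest in the 2D monoculture and in the tumor, with 0.630 and 3.27 CPM per kilobase.

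Read ratios between genes within a library, which need no scaling, showed how unevenly the genes moved. They are not corrected for GC content and length. With that correction the log2 ratio of spheroid to tumor went from 1.80 to 1.37 for Ndrg1 and from -1.38 to -0.68 for Bnip3l. Car9 had 6.03 reads per Egln3 read in the 2D monoculture (5.25 to 6.94), 2.75 in the 2D co-culture, 3.97 in the spheroid and 20.1 in the tumor (19.0 to 21.2). Ndrg1 had 0.595 reads per Bnip3l read in the 2D monoculture, 0.754 in the 2D co-culture, 3.91 in the spheroid (3.82 to 4.01) and 0.433 in the tumor. The balance of Ndrg1 and Bnip3l was thus turned over in the spheroid alone. The secreted signals moved more evenly, with 3.48 Vegfa reads per Adm read in the 2D monoculture, 3.22 in the 2D co-culture, 4.34 in the spheroid and 1.95 in the tumor. The log2 ratios of tumor to 2D monoculture were 0.72 for Vegfa and 1.56 for Adm. With the correction they were 1.26 and 1.18, so that Vegfa was no longer below Adm.

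The likeness of 2 genes was measured as the Euclidean distance between their profiles of log2(CPM + 1) over the 4 libraries, each centred on its mean. Among the 9 genes the nearest pair was Ankrd37 and Bnip3, at 0.35, followed by Adm and Egln3 at 0.76, and the farthest was Kdm3a and Ndrg1, at 3.66. Among all genes averaging at least 10 CPM, the nearest to Vegfa were Extl1 (distance 0.08) and Camta1 (0.16), to Adm Pltp (0.20) and Neat1 (0.26), and to Egln3 Maff (0.28) and Ramp2 (0.31). Ndrg1 was nearest to Rdm1 (0.37) and Kdelr3 (0.40), Ankrd37 to Dkk3 (0.20) and Kbtbd11 (0.23), and Bnip3 to Psme2b (0.15) and Psme2 (0.16), which are near-identical copies that can share reads. Car9 had no gene within 0.5, and its nearest were Mgarp (0.69) and Rgcc (0.73). Bnip3l was nearest to Bfsp2 (0.06) and Zfp943 (0.14), with 86 genes within 0.5, and Kdm3a to Ccp110 (0.09) and Pum2 (0.13), with 173. With 0.1 CPM added in place of 1, 11 of the 18 nearest genes were again among the nearest, so that many of these names depend on the pseudocount. With 4 libraries many genes share a profile, and the distances are descriptions only.

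Ligands among the 9 genes were set beside their receptors. Vegfa signals through Flt1 and Kdr, and both had few reads in the cultures, with Kdr at 5 to 7 reads (0.0351 to 0.0514 CPM) and Flt1 at 3 to 15 reads (0.0220 to 0.131 CPM). In the tumor they had 29.5 and 16.1 CPM. The co-receptor Nrp2 had 435 CPM in the 2D monoculture, 599 in the 2D co-culture, 442 in the spheroid and 185 in the tumor. Nrp1 had 20.2, 16.1, 7.30 and 74.9 CPM in that order. Vegfa transcripts in the cultures thus occurred with Nrp2 transcripts and almost none of Kdr. Of the related ligands, Vegfb was highest in the spheroid, with 134 CPM, Pgf in the tumor, with 35.6 CPM, and Vegfc stayed between 6.46 and 10.4 CPM.

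Adrenomedullin acts through Calcrl joined to Ramp2 or Ramp3. Ramp2 had 3.52 CPM in the 2D monoculture, 8.95 in the 2D co-culture, 24.1 in the spheroid and 14.9 in the tumor, the order that Adm had with the scaling used here. Ramp3 had another order, with 0.168, 2.58, 0.639 and 1.88 CPM. Calcrl had 2.63, 2.25, 1.88 and 13.1 CPM, with its highest level in the tumor. The scavenger receptor Ackr3 had 42.1 CPM in the tumor and at most 2.09 CPM in the cultures. Endothelial cells express Kdr, Flt1 and Calcrl, and the endothelial marker list, of which Eng had 92.4 CPM, was at 398 CPM in the tumor. The part of such cells in the receptor levels was not tested.

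**Figure D5:**
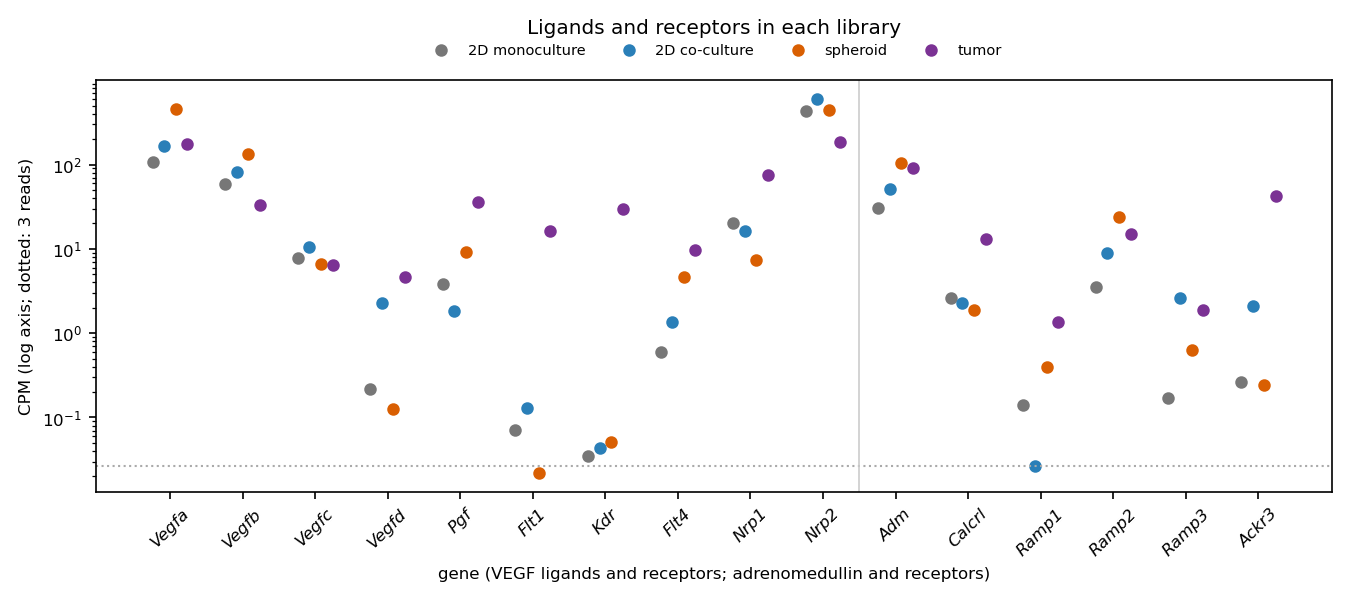
CPM (log axis) of VEGF ligands and receptors, left of the gray line, and of adrenomedullin and its receptors, right of it, with 1 point per library and a dotted line at 3 reads in the library of lowest depth. Vegfa and Ramp2 peak in the spheroid, at 453 and 24.1 CPM, while Kdr and Flt1 are above 1 CPM in the tumor library alone.

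Relatives of the other genes were also read. Of the 11 carbonic anhydrases averaging at least 1 CPM, Car9 included, 3 were over 2-fold higher in the spheroid than in the 2D monoculture, beside 11.2% of all genes, and 0 lower. In the tumor 5 were higher, beside 14.8% of all genes, and 1, Car11, was lower. Car11 had 57.5 CPM in the spheroid and 2.78 in the tumor, the reverse of Car9. Car12, the other well known HIF target of the family, was low throughout and lowest in the spheroid. It had 0.695 CPM in the 2D monoculture, 2.72 in the 2D co-culture, 0.213 in the spheroid and 1.37 in the tumor. Car3, a muscle and fat enzyme, had 773 CPM in the tumor and at most 1.32 CPM in the cultures. Of the 4 NDRG genes, Ndrg2 had 14.0 CPM in the 2D monoculture, 6.54 in the 2D co-culture, 54.2 in the spheroid and 138 in the tumor, whereas Ndrg3 had its highest level, 107 CPM, in the 2D monoculture. Ndrg4 had 101, 23.7, 167 and 10.5 CPM in the same libraries, highest in the spheroid as Ndrg1 was.

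Of the 16 genes of the BNIP3 family and mitophagy, 1, Bnip3, was over 2-fold higher in the spheroid than in the 2D monoculture. None was over 2-fold lower, and the shares of all genes were 11.2% higher and 17.9% lower. The autophagy adaptor Sqstm1 had 4733 CPM in the 2D monoculture, 7323 CPM in the spheroid and 701 in the tumor. Of 6 KDM3 and KDM4 demethylases, 3 were over 2-fold lower in the spheroid, Kdm3a among them, beside 17.9% of all genes, and 0 were higher. Jmjd1c, another member of the KDM3 group, had 68.4 CPM in the 2D monoculture, 12.6 in the 2D co-culture, 11.1 in the spheroid and 112 in the tumor. Kdm4b and Kdm4c are both in the list of other HIF targets used below, and they differed. Kdm4b had 105 CPM in the spheroid, above the 62.5 CPM of the 2D monoculture. Kdm4c had 10.3 CPM in the spheroid, below the 27.0 CPM of the 2D monoculture.

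The machinery that controls HIF was measured as well. Hif1a, the labile subunit, had 215 CPM in the 2D monoculture, 153 in the 2D co-culture, 109 in the spheroid and 321 in the tumor, and its activity is set mainly by protein stability, which was not measured. Epas1, the related subunit, had 7.09, 12.2, 10.9 and 26.4 CPM. The oxygen sensors Egln1 and Egln2 had 73.8 and 98.7 CPM in the 2D monoculture and 146 and 118 CPM in the spheroid. Of the HIF subunits and sensors, 10 averaged at least 1 CPM. Among these Egln3 was the 1 over 2-fold higher in the spheroid than in the 2D monoculture, beside 11.2% of all genes. Ep300 was the 1 over 2-fold lower, beside 17.9% of all genes, with 107 CPM in the 2D monoculture against 43.9 in the spheroid.

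Beyond the 9 genes, a list of other HIF targets outside glycolysis had 37 members with a mean of at least 1 CPM. In the spheroid against the 2D monoculture 5 of them were over 2-fold higher and 2 lower, beside 11.2% and 17.9% of all genes, with a median log2 ratio of 0.16 against 0.05 for all genes. The highest were Hmox1, Ddit4 and Zfp395, at 1.31, 1.23 and 1.21 with 1 CPM added, and Kdm4c and Rora were among the lowest, at -1.31 and -0.79. In that comparison and on that scale Vegfa, Adm, Car9, Egln3 and Ndrg1 were above each of these 37 genes. Kdm3a, at -2.14, was below each of them, and Ankrd37, Bnip3 and Bnip3l lay within their range. In the tumor against the 2D monoculture 17 were higher and 2 lower, beside 14.8% and 18.2% of all genes, with a median of 0.74 against -0.14 for all genes. Of 19 glycolytic HIF targets, 4 were over 2-fold higher in the spheroid and 2 lower, with a median of 0.63, and in the tumor 1 was higher and 2 lower, with a median of 0.00.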

How the data were processed

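The authors deposited whole-number read counts per gene symbol for 4 libraries, 1 per condition, without normalization. Libraries were made from poly(A) RNA with a kit that does not mark strand and were read in pairs. The submitters' processing notes name Trimmomatic, STAR, featureCounts and mm10, with no versions.

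Counts were scaled to CPM with TMM factors of edgeR 4.0.16 in R 4.3.3. DESeq2 1.42.0 size factors, upper quartiles, total counts and TMM factors from genes expressed in the 2D monoculture were alternatives, as were 1.5-fold and 4-fold thresholds, other filters and pseudocounts, and a correction by 10 classes of GC content and 10 of length (GENCODE M21). Other steps used Python 3.11.15, numpy 2.4.6, pandas 2.3.3, scipy 1.17.1 and matplotlib 3.10.9. CPM intervals are Clopper-Pearson, and those of log2 ratios are exact binomial, from the split of a gene's reads between 2 libraries, with nothing added. Genes were called past 2-fold with 1 CPM added, and on simulated counts over 12728 genes 100% of 200 genes changed 4-fold were called in each comparison. The simulated counts held counting error only, without spread between cultures, and the changed genes averaged at least 10 CPM. The check thus does not cover changes near 2-fold or genes of lower level. The totals set the precision given in the report.

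The genes named are the 9 targets, ligand, receptor and family relatives, the 3 highest and 3 lowest of the list of other HIF targets, and the 2 nearest genes of each target. Of these, 1 gene is not reported here. Other names were chosen after their values were seen. The targets, lists and settings were chosen with earlier results of these data known. No test between conditions was made.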

Additional observations from a re-analysis of the deposited data

How the results depend on the processing

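Of 80 counts of the 9 genes under alternative settings, 65 were within 1.5 times of the reported count and 15 were not. At 4-fold, 4 genes were higher in the spheroid than in the 2D monoculture, 0 were higher and 0 lower in the 2D co-culture than in the 2D monoculture, 1 was higher and 0 lower in the spheroid than in the 2D co-culture, 3 were higher in the tumor than in the 2D monoculture, and 0 were higher and 1 lower in the spheroid than in the tumor. At 1.5-fold, 4 were higher and 2 lower in the 2D co-culture than in the 2D monoculture. The share of all genes past 4-fold or 1.5-fold was not computed, so these counts stand without a background. Kdm3a, the 1 gene over 2-fold lower in the 2D co-culture, was lost (0 genes) with upper quartile factors and with the correction for GC content and length, and the latter also left 0 lower in the spheroid than in the 2D co-culture and 2 lower in the spheroid than in the tumor. With total counts, 1 was higher in the spheroid than in the tumor. Over all genes, the correction gave 11.7% lower in the spheroid and 6.0% lower in the tumor than in the 2D monoculture, and 16.9% higher in the spheroid than in the tumor. The share lower in the tumor than in the 2D monoculture was 12.1% with upper quartile factors, 10.2% with factors from genes expressed in the 2D monoculture and 12% over all genes with a read, and the share higher was 7.14% over genes averaging at least 10 CPM. The share higher in the spheroid than in the tumor was 17.8% over all genes with a read. Beyond the construction of each setting, the cause was not tested.

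Of 45 ratios of the 9 genes, 45 had the same sign with DESeq2 factors, upper quartile factors and the correction, and 44 with total counts and with factors from genes expressed in the 2D monoculture, the exception being Adm between spheroid and tumor. The median log2 ratio of all genes in the tumor against the 2D monoculture moved by 0.22 with total counts, 0.23 with upper quartiles, 0.33 with factors from genes expressed in the 2D monoculture and 0.14 with the correction, and the share of calls that were higher went from 44.8% to 59.9%, 60.5%, 67.0% and 72.6%. For spheroid against tumor the median moved by -0.33, -0.12 and -0.29 with the same 3 factors, and the share of higher calls went from 49.2% to 36.7% with total counts and 38.2% with factors from genes expressed in the 2D monoculture. For the 2D cultures it went from 28.5% to 39.0% with upper quartile factors. No paired analysis was possible because no condition has a replicate. Depth does not limit the 9 genes, the fewest reads being 239 for Egln3 in the 2D monoculture, but spread between cultures or animals was not measured.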

Other observations

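Genes of the ATF4 stress response, which answers lack of amino acids and misfolded proteins, were read beside the hypoxia-induced genes. Of 12 genes, 6 were over 2-fold higher in the spheroid than in the 2D monoculture and 0 lower, beside 11.2% and 17.9% of all genes. Ddit4, among the 6, and Vldlr are also in the list of other HIF targets, so the lists are not separate. The median log2 ratio of the 12 genes was 1.07 against 0.05 for all genes. In the tumor against the 2D monoculture 1 was higher and 8 were lower, beside 14.8% and 18.2% of all genes. The median was -2.13 against -0.14 for all genes. In the spheroid against the tumor 11 were higher and 1 lower, beside 26.8% and 27.6% of all genes. Here the median was 3.35 against 0.08 for all genes. Atf4 had 671 CPM in the 2D monoculture, 1229 in the 2D co-culture, 2713 in the spheroid and 407 in the tumor. Trib3, a pseudokinase induced by ATF4, had 191, 163, 1279 and 34.5 CPM.

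Of 12 proliferation genes, 7 were over 2-fold lower and 0 higher in the spheroid than in the 2D monoculture, beside 17.9% and 11.2% of all genes. Their median log2 ratio was -1.30. In the tumor against the 2D monoculture 5 were higher and 2 lower, beside 14.8% and 18.2% of all genes. Of 6 p53 targets, 1 was higher and 2 were lower in the spheroid, and 5 were lower in the tumor, beside the same shares. Lox, a collagen cross-linking enzyme and HIF target, reached 188 CPM in the tumor, 179 in 2D co-culture and 0.867 in the spheroid. Fibroblast markers were also highest in the 2D co-culture and the tumor, and their part in the Lox level was not tested.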
